A study of Mus musculus with 12 samples.

Results

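The colony-stimulating factors, Flt3 and their receptors were followed in colonic mononuclear phagocytes (MNP) with and without Runx3. The set was taken by gene symbol and held 8 genes: the ligands *Csf1*, *Csf2* and *Csf3*, the receptor genes *Csf1r*, *Csf2ra*, *Csf2rb* and *Csf3r*, and the receptor gene *Flt3*. Each of the 8 had 1 row of its own among the 35556 rows of the arrays, which name 19938 genes. The rule used no measured value, but the set was chosen with earlier results of these data known. The 12 arrays held RNA of 2 populations sorted from the cecum, the resident macrophages (RM) and the dendritic cells (DC) that carry CD11b. All mice were C57Bl/6, 6 to 8 weeks old, and each array carried a pool of male and female cells from 3 to 4 animals.

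WT mice, labelled Runx3 +/+, gave 3 RM and 2 CD11b+ DC arrays. Runx3Δ mice, labelled Runx3 -/-, gave 4 RM and 3 CD11b+ DC arrays. Per the methods, Runx3Δ stands for Runx3 fl/fl with CD11c:Cre, so the deletion was driven by a promoter active in both DC and macrophages, and the WT mice were littermates. Both populations were positive for CD45, CD11c, MHCII and CD11b and were Ly6c-. RM were also positive for the macrophage antigen encoded by *Adgre1*, whereas the CD11b+ DC were sorted as negative for that antigen. Values are log2 intensities, so a difference of 1 is a doubling of the signal, and a gene is said to have differed only where its p in the limma fit stayed under 0.05 after Benjamini-Hochberg adjustment for all 35556 rows.

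CSF1 (M-CSF) and its receptor tyrosine kinase CSF1R keep tissue macrophages alive and support their differentiation from monocytes. GM-CSF, encoded by *Csf2*, binds a receptor of a specific α chain (*Csf2ra*) and a shared β chain (*Csf2rb*), and signals through JAK2 and STAT5. It is known in the gut for the support of DC that induce regulatory T cells. G-CSF, encoded by *Csf3*, acts through CSF3R and is the main growth factor of neutrophils, and FLT3 is the receptor tyrosine kinase that drives the development of conventional DC.

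*Flt3* and *Csf3r* had, among the 8 genes, the greatest differences between the cell types in WT mice, and the 250 bases before their RefSeq start sites (GRCm38.p6) are shown for that reason, each 5′ to 3′ on the strand of its gene. RUNX factors bind TGTGGT or TGCGGT, and PU.1, the factor that macrophage genes widely share, binds around GAGGAA. Both strands were searched for these letters in the window from 250 bases before to 50 bases after each start, and matches are in capitals.
Flt3, chr5:147400490-147400739, minus strand: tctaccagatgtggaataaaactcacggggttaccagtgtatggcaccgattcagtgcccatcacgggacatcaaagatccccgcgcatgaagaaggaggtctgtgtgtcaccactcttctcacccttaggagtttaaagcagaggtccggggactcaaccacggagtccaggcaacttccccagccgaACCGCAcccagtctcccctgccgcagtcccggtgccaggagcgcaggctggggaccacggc
Csf3r, chr4:126024409-126024658, plus strand: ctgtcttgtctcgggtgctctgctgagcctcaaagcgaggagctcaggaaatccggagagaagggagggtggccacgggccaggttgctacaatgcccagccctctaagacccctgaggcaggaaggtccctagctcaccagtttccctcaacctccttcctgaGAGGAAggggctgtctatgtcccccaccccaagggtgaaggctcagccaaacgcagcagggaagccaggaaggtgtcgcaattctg
The *Flt3* window held 1 RUNX match, on the opposite strand with its first letter at -61, and 0 PU.1 matches. The *Csf3r* window held 1 PU.1 match at -86 and 0 RUNX matches. The window of *Csf2ra* held 2 PU.1 matches, at -14 and -8, and those of *Csf1* and *Csf2* neither motif. Of 32851 windows of this length over all genes, 22.4% held a RUNX match and 28.3% a PU.1 match, so single matches are common. Promoters were at hand for 5 of the 8 genes.

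The labels were checked against marker genes. *Adgre1*, whose protein set the gate, lay between 11.57 and 11.93 in RM and between 9.16 and 9.81 in CD11b+ DC. *Zbtb46*, a transcription factor gene of conventional DC, lay between 5.47 and 5.87 in RM and between 6.88 and 7.33 in CD11b+ DC. Over 11 macrophage markers the mean level per array was 10.83 to 11.40 in RM and 9.02 to 9.52 in CD11b+ DC, and over 12 conventional DC markers it was 7.93 to 8.46 and 9.54 to 9.73, respectively. Of these 12, 1 went the other way: *Irf8* was higher in RM, by a log2 difference of 0.60 in WT and 0.39 in Runx3Δ. Markers of B and plasma cells were also at 8.38 to 9.83 in RM and 7.58 to 8.60 in CD11b+ DC, and their part in the results was not tested. The *Runx3* row, which covers more than the deleted exon 3, does not measure the deletion. In such bulk samples fewer cells of a type and less RNA per cell cannot be told apart.

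**Figure D1:**
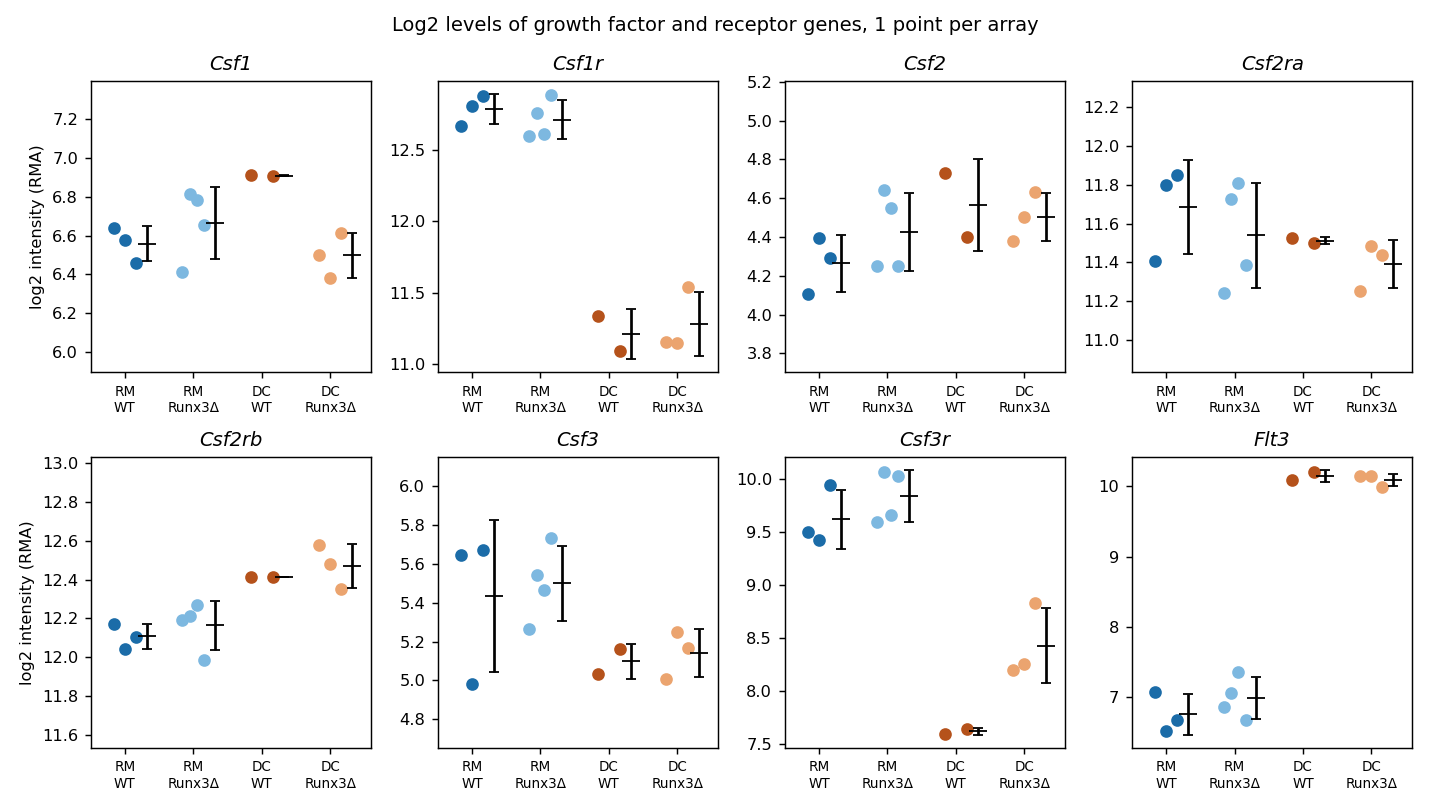
Log2 intensity (RMA) of each of the 8 genes on the 12 arrays, with 1 point per array and the mean ± SD of each group beside it; every panel has its own vertical scale. *Csf1r* and *Csf3r* lie higher in all 7 RM arrays than in all 5 CD11b+ DC arrays, *Flt3* lies lower, and the 2 WT CD11b+ DC arrays of *Csf3r* (7.59 and 7.64) lie below the 3 Runx3Δ ones.

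The first question was how the receptors separate the 2 cell types. In WT mice 3 of the 8 genes differed between RM and CD11b+ DC, against 6.07% of all rows, and at the study's thresholds (1.5-fold and an unadjusted p of at most 0.05) the same 3 were counted, against 8.52% of rows. In Runx3Δ mice 3 of 8 differed by adjusted p, against 7.85% of rows, and 3 of 8 met the study's thresholds, against 7.56%. *Csf1r* and *Csf3r* were higher in RM and *Flt3* was higher in CD11b+ DC, in both genotypes. The WT and Runx3Δ comparisons rest on different arrays but on 1 estimate of the spread.

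*Csf1r* (row 10456071), the CSF1 receptor, was at 12.67, 12.81 and 12.87 in the WT RM and at 12.60, 12.76, 12.61 and 12.88 in the Runx3Δ RM. In CD11b+ DC it was at 11.34 and 11.09 in WT and at 11.15, 11.15 and 11.54 in Runx3Δ. Every RM array thus lay above every CD11b+ DC array, and the genotypes overlapped within each cell type. *Csf1r* was 2.97-fold higher in WT RM than in WT CD11b+ DC (log2 difference 1.57, SE 0.15, 95% interval 1.24 to 1.89, limma adjusted p = 0.000135) and 2.70-fold higher in Runx3Δ RM (1.43, SE 0.12, 1.16 to 1.70, adjusted p = 6.09e-05). Its lowest CD11b+ DC array, at 11.09, was still above 5, the log2 level the study took for expressed genes. From high to low its group means ran 12.78 ± 0.10 (SD, n = 3) in WT RM, 12.71 ± 0.14 (SD, n = 4) in Runx3Δ RM, 11.28 ± 0.22 (SD, n = 3) in Runx3Δ CD11b+ DC and 11.21 ± 0.18 (SD, n = 2) in WT CD11b+ DC, with neighbours of 1 cell type not separated beyond their spread.

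*Flt3* (row 10535780) went the other way. Its levels in RM were 7.07, 6.51 and 6.67 in WT and 6.85, 7.05, 7.36 and 6.67 in Runx3Δ. In CD11b+ DC they were 10.09 and 10.21 in WT and 10.15, 10.14 and 9.99 in Runx3Δ. The cell types were far apart, and CD11b+ DC varied little, with a SD of 0.082 over all 5 arrays. *Flt3* was 10.6-fold lower in WT RM than in WT CD11b+ DC (log2 difference -3.40, SE 0.20, 95% interval -3.84 to -2.96, limma adjusted p = 1.39e-05) and 8.64-fold lower in the Runx3Δ pair (-3.11, SE 0.17, -3.48 to -2.74, adjusted p = 5.17e-06).

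*Csf3r* (row 10508074), the G-CSF receptor, was at 9.50, 9.42 and 9.94 in WT RM and at 9.59, 10.07, 9.66 and 10.03 in Runx3Δ RM. In CD11b+ DC it was at 7.59 and 7.64 in WT and at 8.19, 8.25 and 8.83 in Runx3Δ. The RM arrays of both genotypes overlapped, while the CD11b+ DC arrays fell into a lower WT pair and a higher Runx3Δ trio. *Csf3r* was 4.01-fold higher in RM than in CD11b+ DC in WT (log2 difference 2.00, SE 0.23, 95% interval 1.51 to 2.50, limma adjusted p = 0.000370) and 2.66-fold higher in Runx3Δ (1.41, SE 0.19, 1.00 to 1.83, adjusted p = 0.000834). Neutrophils are the cells best known for *Csf3r*, and 14 markers of neutrophils and eosinophils were read beside it. Their mean was 4.57 to 4.85 in RM and 4.75 to 4.96 in CD11b+ DC, and 7 of the 14 (*S100a8*, *Ngp*, *Ltf*, *Ly6g*, *Elane*, *Epx* and *Prg2*) were under 5 on every array. Others were not: *Siglecf* was at 7.16 to 8.23 over the 12 arrays, and *Retnlg* reached 8.80 in WT RM. The part of these cells in the *Csf3r* values was not tested.

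These 3 differences were also read within litter numbers, taken here to mark shared litters. In the 2 WT numbers with both cell types *Csf1r* was higher in RM by 1.47 and 1.78, and in the 3 Runx3Δ numbers by 1.44, 1.46 and 1.34. *Csf3r* was higher in RM by 1.83 and 2.30 in WT and by 1.40, 1.41 and 1.20 in Runx3Δ. *Flt3* differed by -3.58 and -3.54 in WT and by -3.30, -2.78 and -3.32 in Runx3Δ. All 5 pairs of arrays thus gave the same direction for each of the 3 genes. Any pairing would have done so, because every RM array lay apart from every CD11b+ DC array, so the shared direction adds no support. In WT these calls depend on how the spread is estimated. With limma on the WT arrays alone the same 3 genes were called, among 883 of 35556 rows. The methods' test on those arrays takes the spread of each row from that row alone. Its adjusted p was 0.143 for *Csf1r*, 0.174 for *Csf3r* and 0.137 for *Flt3*. It called 0 of 35556 rows, while all 3 genes still met the study's thresholds.

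**Figure D2:**
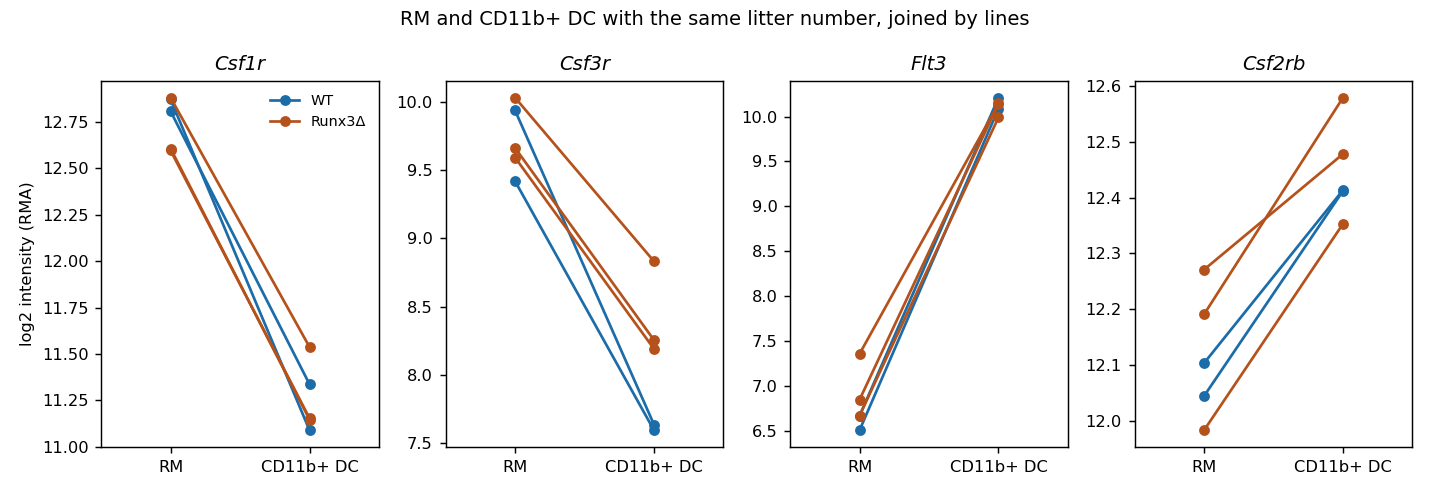
Log2 intensity (RMA) of *Csf1r*, *Csf3r*, *Flt3* and *Csf2rb* in RM and CD11b+ DC, each line joining the 2 arrays of 1 litter number and genotype. All 5 lines fall from RM to CD11b+ DC for *Csf1r* and *Csf3r* and rise for *Flt3* and *Csf2rb*.

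Neither chain of the GM-CSF receptor passed between the cell types. *Csf2ra* (row 10468893), the ligand-binding α chain, was at 11.41, 11.80 and 11.85 in WT RM and at 11.24, 11.73, 11.81 and 11.39 in Runx3Δ RM. Its levels in CD11b+ DC were 11.52 and 11.50 in WT and 11.25, 11.49 and 11.44 in Runx3Δ. The cell types overlapped, and the differences of 0.17 in WT (95% interval -0.23 to 0.58, limma adjusted p = 0.753) and 0.15 in Runx3Δ (-0.19 to 0.49, adjusted p = 0.704) did not pass.

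*Csf2rb* (row 10425066), the β chain that GM-CSF shares with IL-3 and IL-5, was at 12.17, 12.04 and 12.10 in WT RM and at 12.19, 12.21, 12.27 and 11.98 in Runx3Δ RM. In CD11b+ DC it was at 12.41 and 12.41 in WT and at 12.58, 12.48 and 12.35 in Runx3Δ. Every CD11b+ DC array lay above every RM array, by a small margin. The log2 difference was -0.31 in both genotypes, with an adjusted p of 0.165 in WT (SE 0.11) and of 0.0757 in Runx3Δ (SE 0.093, limma), so neither passed. The Runx3Δ difference passed under 3 of 25 other settings: an intensity trend with a robust prior, where adjusted p was lowest at 0.0452, 1 row per gene, and the mean of the rows of a gene. *Csf2rb2*, its close paralog that serves IL-3 in the mouse, was at a mean of 11.34 in WT RM, 11.45 in Runx3Δ RM, 10.99 in WT CD11b+ DC and 11.32 in Runx3Δ CD11b+ DC. Its WT difference had the opposite sign (0.35, adjusted p = 0.0778) and did not pass either. Cross-hybridisation between the 2 rows was not tested.

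The ligand genes showed small differences between the cell types, none of which passed. *Csf1* (row 10501164) was at 6.64, 6.58 and 6.46 in WT RM and at 6.41, 6.82, 6.78 and 6.65 in Runx3Δ RM. In CD11b+ DC it was at 6.91 and 6.91 in WT and at 6.50, 6.38 and 6.62 in Runx3Δ. The WT CD11b+ DC arrays were above all others. The RM minus CD11b+ DC difference was -0.35 in WT (SE 0.13, limma adjusted p = 0.179) and 0.17 in Runx3Δ (adjusted p = 0.492).

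*Csf3* (row 10380999), the G-CSF gene, was at 5.65, 4.98 and 5.67 in WT RM, at 5.27, 5.54, 5.46 and 5.73 in Runx3Δ RM, at 5.03 and 5.16 in WT CD11b+ DC and at 5.01, 5.25 and 5.17 in Runx3Δ CD11b+ DC. The Runx3Δ RM arrays all lay above the Runx3Δ CD11b+ DC arrays, but the difference of 0.36 did not pass (limma adjusted p = 0.287), and in WT it was 0.34 (adjusted p = 0.474). *Csf2* (row 10385912), the GM-CSF gene, ranged from 4.11 to 4.40 in WT RM, 4.25 to 4.64 in Runx3Δ RM, 4.40 to 4.73 in WT CD11b+ DC and 4.38 to 4.63 in Runx3Δ CD11b+ DC. It was thus under that log2 level of 5 on all 12 arrays. The differences of -0.30 in WT (adjusted p = 0.393) and -0.08 in Runx3Δ (adjusted p = 0.835) at that level carry little information on the transcript.

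**Figure D3:**
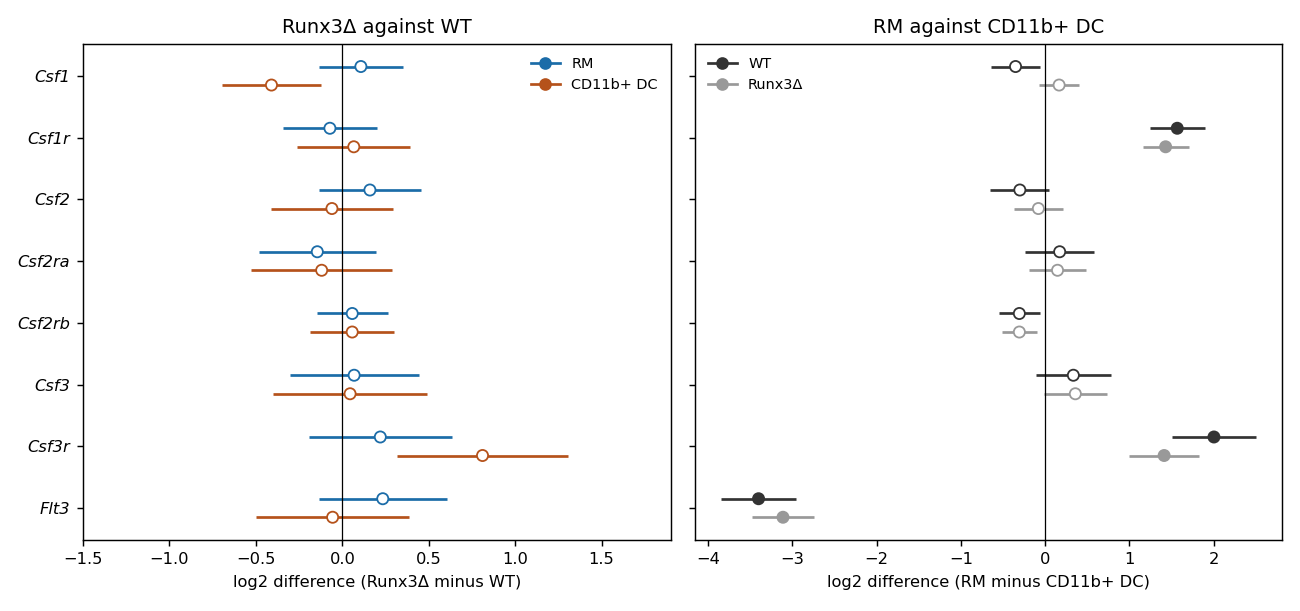
Log2 differences of the 8 genes with 95% intervals from the fit of 4 groups, Runx3Δ minus WT at left and RM minus CD11b+ DC at right; filled points have an adjusted p under 0.05 and open points do not. *Csf1r*, *Csf3r* and *Flt3* are filled at right in both genotypes, and all points at left are open.

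The study asked what the loss of Runx3 does to each cell type. In RM, 0 of the 8 genes differed between Runx3Δ and WT by adjusted p, against 0.0141% of rows (5 of 35556), and 0 met the study's thresholds, against 1.46% of rows. At an unadjusted p under 0.05 limma and the methods' test on these 2 groups each counted 0 of the 8, against 2832 and 2194 of 35556 rows, so this count says little about the 8. Adjusted p ran from 0.773 to 0.940. The intervals of the receptors bound what could have been missed: -0.34 to 0.20 for *Csf1r* (log2 difference -0.07), -0.48 to 0.20 for *Csf2ra* (-0.14), -0.15 to 0.26 for *Csf2rb* (0.06), -0.20 to 0.63 for *Csf3r* (0.22) and -0.14 to 0.60 for *Flt3* (0.23). For *Csf1r*, *Csf2ra* and *Csf2rb* a change of 1.5-fold in either direction lay outside the interval, whereas for *Csf3r* and *Flt3* a rise of that size lay inside it. The ligand differences were 0.11 for *Csf1*, 0.16 for *Csf2* and 0.07 for *Csf3*.

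In CD11b+ DC, 0 of the 8 genes differed between the genotypes by adjusted p, and 0 rows of the whole table did (0.0%). At an unadjusted p under 0.05 limma counted 2 of the 8, *Csf3r* and *Csf1*, against 2395 rows, and the methods' test on these 2 groups 1, *Csf1*, against 2581 rows, with 0 rows past the adjusted threshold. At the study's thresholds 1 was counted, *Csf3r*, against 2.13% of rows. *Csf3r* was 1.75-fold higher in Runx3Δ (log2 difference 0.81, SE 0.23, 95% interval 0.32 to 1.31), but its limma adjusted p was 0.476. The 3 Runx3Δ arrays (8.19, 8.25 and 8.83) all lay above the 2 WT arrays (7.59 and 7.64), and between the arrays numbered litter 3, the single number with both genotypes of CD11b+ DC, the difference was 0.62. The labels do not say whether the same number in 2 groups is 1 litter. Without Runx3Δ replicate 3 it was 0.61. With the methods' test on these 2 groups alone *Csf3r* no longer met the study's thresholds.

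The neutrophil and eosinophil markers went both ways beside *Csf3r*. Their mean was 4.75 and 4.79 in WT and 4.80 to 4.96 in Runx3Δ CD11b+ DC, with log2 differences from -0.78 to 1.27, a median of 0.05 and 0 of 14 past the adjusted threshold (2 at an unadjusted p under 0.05). Among them *Cxcr2*, a chemokine receptor of neutrophils, had a difference of 1.27 (adjusted p = 0.658), and its Runx3Δ arrays were spread from 4.91 to 7.05. *Retnlg*, a resistin-like gene of neutrophils, had the difference of -0.78 (adjusted p = 0.915). The part of these cells in the *Csf3r* values was not tested.

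*Csf1* was lower in Runx3Δ CD11b+ DC, by a log2 difference of -0.41 (SE 0.13, 95% interval -0.70 to -0.12), with a limma adjusted p of 0.544. Both WT arrays were at 6.91 and the Runx3Δ arrays were at 6.50, 6.38 and 6.62, so the groups did not overlap, and between the arrays numbered litter 3 the difference was -0.52. The share of all rows with groups apart in this way was not counted, so the separation adds no support, here or for *Csf3r*. Stromal cells are a known source of CSF1, and 11 stromal markers had a mean of 6.13 and 6.64 in WT and of 5.79 to 6.06 in Runx3Δ CD11b+ DC. Their median difference was -0.44, with 0 of 11 past the adjusted threshold (3 at an unadjusted p under 0.05). In RM their median difference was -0.24, with 1 of 11 past the adjusted threshold, while *Csf1* differed by 0.11 there. The part of stromal cells in the *Csf1* values was not tested.

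For the other genes the log2 difference between the genotypes of CD11b+ DC was nearer 0. It was 0.07 for *Csf1r* (95% interval -0.26 to 0.39), -0.06 for *Flt3* (-0.50 to 0.39), 0.06 for *Csf2rb* (-0.19 to 0.30) and -0.12 for *Csf2ra* (-0.53 to 0.29). The *Csf2ra* arrays of the genotypes did not overlap either, at 11.50 and above in WT and at 11.49 and below in Runx3Δ, although its limma adjusted p was 0.962. For the ligand genes *Csf2* and *Csf3* the log2 difference was -0.06 and 0.04.

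The effect of the deletion in RM was then set against that in CD11b+ DC as an interaction. By limma adjusted p 0 of 8 genes and 0 rows in all passed (0.0%), with 1 of the 8 and 1391 rows at an unadjusted p under 0.05. That gene was *Csf1*, whose effect was higher in RM by 0.52 (SE 0.17, 95% interval 0.14 to 0.89, limma adjusted p = 1.00). For *Csf3r* the interaction was -0.59 (SE 0.29, -1.24 to 0.06, limma adjusted p = 1.00). Under 7 of 23 other settings, the litter number as a fixed block among them, the *Csf3r* interaction did meet the study's thresholds, while its adjusted p passed under none of the 23. A difference between the cell types in their response to the deletion was therefore not shown for either gene after adjustment.

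Genes of the same pathways were counted beside the 8. For each list the share of all rows that differed between the cell types was 6.07% in WT and 7.85% in Runx3Δ. Those rows were 1085 higher and 1075 lower in RM in WT, and 1327 and 1464 in Runx3Δ. Among 9 related ligands and receptors, 0 were higher and 2 lower in RM than in CD11b+ DC in WT, and 0 and 1 in Runx3Δ. *Kit*, the stem cell factor receptor and a close relative of *Flt3* and *Csf1r*, was 7.80-fold lower in WT RM (log2 difference -2.96, limma adjusted p = 5.46e-05) and lower by a log2 difference of -2.63 in Runx3Δ (adjusted p = 2.69e-05). The other was *Il3* in WT (-1.02, adjusted p = 0.00531), at levels of 3.29 to 4.54. These are under 5, where a difference carries little information on the transcript. The genes of the other ligands of these receptors, *Il34* for CSF1R and *Flt3l* for FLT3, did not pass in either genotype. *Il34* was under 5 on all 12 arrays, and *Flt3l* was at 6.91 to 7.38.

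Of 25 signal transducers of these receptors 23 had a row. In WT 0 of them were higher and 4 lower in RM, and in Runx3Δ 0 and 3. *Stat5a*, which carries the GM-CSF signal, differed by -1.39 in WT (limma adjusted p = 0.00123) and -1.15 in Runx3Δ. *Jak2*, the kinase bound to the β chain, differed by -0.90 (adjusted p = 0.00120) and -0.73. The phosphatase gene *Ptpn11* (-0.53, adjusted p = 0.0148) passed in WT, and the adaptor gene *Sh2b3* in both (-0.44, adjusted p = 0.0482, and -0.35). The median over the 23 was -0.11 in WT and -0.13 in Runx3Δ, against -0.0018 and 0.022 over all rows.

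Of 14 genes known to respond to STAT5 or GM-CSF, 1 was higher and 7 were lower in WT RM, with a median log2 difference of -0.88, and 1 was higher and 6 were lower in Runx3Δ RM, with a median of -0.44. Over all rows 6.07% differed in WT and 7.85% in Runx3Δ, with medians of -0.0018 and 0.022. Whether these genes reflect a response to GM-CSF was not tested. *Ccl17* and *Ccl22*, chemokines that attract T cells through CCR4, differed by -3.27 and -2.16 in WT and by -2.19 and -1.44 in Runx3Δ. The cyclin gene *Ccnd2* differed by -1.40 and -1.35, and *Bcl2l1*, which encodes the survival protein BCL-XL, by -1.32 and -1.20. *Irf4*, a transcription factor gene of CD11b+ DC, differed by -1.33 in WT, and in Runx3Δ its means were 8.91 in RM and 9.98 in CD11b+ DC. Between the genotypes 0 of the 14 passed in RM, where 6 had an unadjusted p under 0.05, and 0 in CD11b+ DC, where 1 did; over all 35556 rows 2832 and 2395 did. The median difference was -0.06 in RM and -0.14 in CD11b+ DC. In RM the smallest p values belonged to *Ccl22* (0.77, limma adjusted p = 0.280) and *Ccl17* (0.96, adjusted p = 0.356), and in CD11b+ DC to *Irf4* (-0.66, adjusted p = 0.427) and *Aldh1a2*, the retinoic acid enzyme gene (-0.998, adjusted p = 0.764).

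Of 14 genes that respond to CSF1 or regulate *Csf1r*, 13 had a row. In WT 5 were higher and 1 was lower in RM, and in Runx3Δ 5 and 2. The higher ones included *Plau*, the urokinase gene (2.64 in WT and 1.99 in Runx3Δ), *Maf*, a macrophage transcription factor gene (1.95 and 1.75), *Ets2* (1.30 in WT) and *Cebpb* (1.11 in Runx3Δ). The means of *Ets2* in Runx3Δ were 11.49 in RM and 10.38 in CD11b+ DC. Those of *Cebpb* in WT were 9.03 and 8.23. *Ccnd1*, the cyclin gene that CSF1 induces in dividing macrophages, was lower in RM, with differences of -1.37 and -1.65. Between the genotypes 0 of the 13 passed in either cell type, with 5 at an unadjusted p under 0.05 in RM and 3 in CD11b+ DC. In each cell type 2 of the 13 differences were above 0. Their median was -0.33 in RM, against 0.025 over all rows, and -0.19 in CD11b+ DC, against 0.0099. In RM *Ccnd1* (-0.47, limma adjusted p = 0.250) and *Fli1* (-0.42, adjusted p = 0.294) had the smallest p. In CD11b+ DC the smallest p values belonged to *Fli1* (-0.35) and *Egr1* (-1.01), with a limma adjusted p of 0.634 and 0.695. Among the related ligands and receptors and the signal transducers 0 genes passed between the genotypes in either cell type. With an unadjusted p under 0.05 there were 2 and 4 in RM and 3 and 5 in CD11b+ DC, against 2832 and 2395 of all rows. The medians were 0.02 and -0.04 in RM and 0.06 and -0.02 in CD11b+ DC. In RM *Il5* (0.25), *Kitl* (-0.79), *Sos1* (-0.30) and *Cblb* (0.39) had the smallest p (limma adjusted p 0.527 to 0.619). In CD11b+ DC *Il3* (-0.92), *Csf2rb2* (0.33), *Ptpn11* (-0.34) and *Dok2* (-0.80) had them (limma adjusted p 0.265 to 0.666). *Il5* and *Il3* were under 5 on all 12 arrays, where a difference carries little information on the transcript. At the study's thresholds *Kitl* was lower in both cell types (-1.27 in CD11b+ DC), *Il3* lower in CD11b+ DC, and *Dok2* higher in RM (0.64) but lower in CD11b+ DC. The *Kitl* arrays of WT RM ran from 5.20 to 7.06, with a median of 5.53, and overlapped those of Runx3Δ RM (4.89 to 5.34). Its Runx3Δ CD11b+ DC arrays were under 5, at 4.37 to 4.47. The limma adjusted p of *Kitl* was 0.619 in RM and 0.577 in CD11b+ DC.

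**Figure D4:**
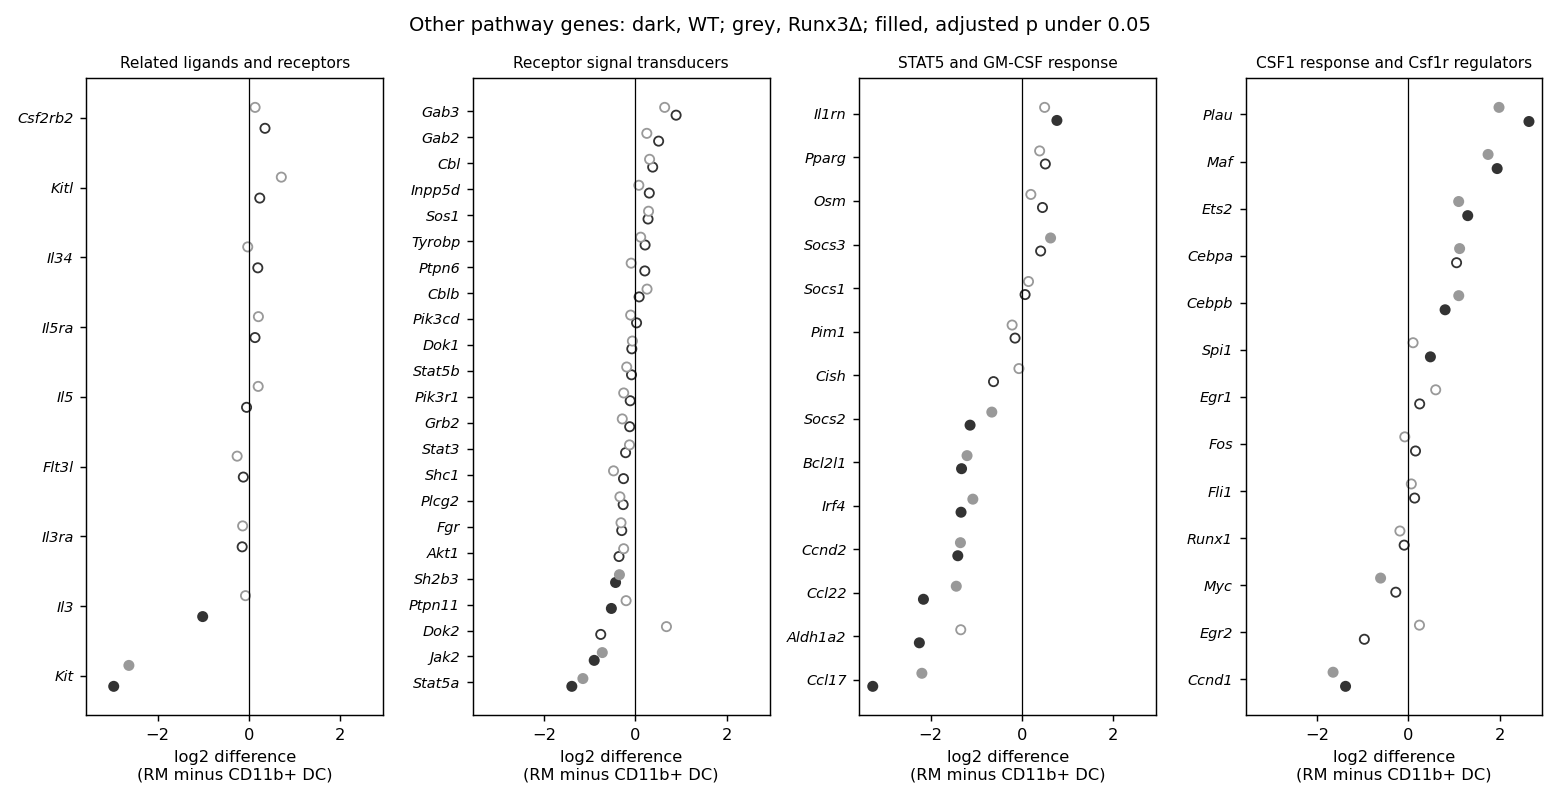
Log2 difference, RM minus CD11b+ DC, of each gene of the 4 pathway lists, dark for WT and grey for Runx3Δ, with filled points for an adjusted p under 0.05. *Kit*, *Stat5a*, *Jak2* and most of the filled STAT5 and GM-CSF response genes lie left of 0, and *Plau*, *Maf* and *Ets2* lie right of it.

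The genes most like each of 7 members, without the dim *Csf2*, were taken by the Pearson correlation of their log2 levels over the 12 arrays, among 17014 genes, as a description. The arrays share 2 cell types, so a gene that separates these scores high. *Csf1r* was closest to *C1qa* (r = 0.998), *Dennd1a* (0.996) and *C1qc* (0.995), 2 of which encode chains of complement C1q. *Csf3r* was closest to *Mmp14* (0.989), *Src* (0.986) and *Svbp* (0.981), and *Flt3* to *Map3k14* (0.995), *Rhof* (0.994) and *Cd7* (0.993). For the genes that did not pass between the cell types the values were lower: *Csf2rb* had *Mast4* (0.954), *Csf2ra* had *Dazap2* (0.954), *Csf3* had *Dnajc12* (0.939) and *Csf1* had *Chsy1* (0.887) as its nearest gene. After removal of the 4 group means *Csf1r* remained close to *C1qa* (0.948), beside *Cd84* (0.955) and *C5ar1* (0.952), whereas *Csf3r* was closest to *Acod1* (0.958) and *Flt3* to *Gpx6* (0.940). The nearest genes of *Csf2ra* (0.985), *Csf3* (0.942) and *Csf1* (0.921) reached like values. Each is the highest among 17014 genes on 12 arrays, so values of this size are not particular to a gene.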

How the data were processed

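The authors sorted RM and CD11b+ DC, hybridised their RNA to Affymetrix arrays and normalised by RMA with GC correction in Partek, and the deposited log2 intensities were used as they are. The methods name an exon array and the platform record a gene-level one, whose annotation was used. The 4 groups were fitted with limma 3.58.1 in R 4.3.3 (statmod 1.5.0 for the random block), with Benjamini-Hochberg adjustment over 35556 rows and 95% intervals; the first 6617 rows carry no gene symbol. Figures used Python 3.11.15 and matplotlib 3.10.9. All 8 genes were named, and per pathway list up to 4 genes past the threshold with the smallest p, or 2 where none passed. *Csf2rb2*, *Il34*, *Flt3l* and the marker genes were added after their values were seen. So were some genes counted at the study's thresholds and some values of the other genotype. The nearest genes were taken among genes with 1 symbol. Members and lists were chosen with earlier results of these data known. Nothing in the labels says that pools of 1 group were sorted independently, so p-values measure the spread between pools, and the number of arrays limits the precision.

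The labels number litters, and these numbers were taken as pairs: 13 pairs of arrays with the same number had a median correlation of 0.0958 (-0.0412 to 0.358) after removal of group means, and 40 pairs with different numbers -0.0347. Between the cell types the same-number median was 0.188 in WT (2 pairs) and 0.227 in Runx3Δ (3 pairs). Between the genotypes it was lower, 0.034 in RM (3 pairs, -0.041 to 0.207) and 0.077 for the 1 pair of CD11b+ DC. The fit was also run on simulated data with independent noise on each array, so effects of shared litters were not tested there. Promoters are from RefSeq (GRCm38.p6), and motif shares cover windows of 300 bases.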

Additional observations from a re-analysis of the deposited data

How the results depend on the processing

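Each of the 5 comparisons was repeated under 25 alternatives (23 for the interaction, 24 for *Csf2*, which a floor at a log2 level of 5 removes), and no difference changed sign among those called. The members called numbered 3 between RM and CD11b+ DC in WT under 24 of 25; the methods' test on the WT arrays alone gave 0. Leaving out each array in turn gave 0 to 0 members called in RM, in CD11b+ DC and for the interaction, and 3 to 3 between the cell types in either genotype; omitting a WT CD11b+ DC array leaves 1, which is assumed to vary like the other groups. With the litter number as a replicate block, fixed or random, 0 members were called in RM, in CD11b+ DC and for the interaction and 3 between the cell types in each genotype, so the block changed no call by adjusted p; at the study's thresholds the fixed block added the *Csf3r* interaction, as did array weights, quantile normalization, either way of reducing genes to a single value, and the omission of WT RM replicate 2 or Runx3Δ CD11b+ DC replicate 1. In CD11b+ DC the fixed and random block gave *Csf3r* a difference of 0.76 and 0.81. Over the alternatives that difference ran from 0.61 to 0.93 (adjusted p 0.197 to 1.00) and that of *Csf1* from -0.47 to -0.35 (0.290 to 1.00). Rows called ran from 0 (the groups of the comparison alone) to 63 (without WT replicate 1) in RM, with 29 without the leading unnamed rows; from 0 to 7 (without WT replicate 2) in CD11b+ DC; from 0 to 3014 (array weights) between the cell types in WT, with 1020 or 1036 without either WT CD11b+ DC array; and from 1562 (without Runx3Δ CD11b+ DC replicate 2) to 3964 (array weights) in Runx3Δ.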
